A study of Arabidopsis thaliana with 12 samples.

Results

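Genes of the mitochondrial genome and the genes of their copy on chromosome 2 were followed in 12 RNA-seq libraries of Arabidopsis thaliana seedlings. The members were the 152 ids of the gene tables that start with ATMG, the mitochondrial gene ids, and the 123 ids of chromosome 2 numbered AT2G07660 to AT2G07840, together 275 of the 35651 ids in each table. The series asked how loss of CDCA7A and CDCA7B, partners of chromatin remodelling in the upkeep of DNA methylation, alone or with loss of the linker histone H1, changes transcripts. Each library came from a 14-day-old seedling, with 3 libraries for each of 4 genotypes: Col-0, the wild type; cdca7a cdca7b, which carries CRISPR mutations in both CDCA7 genes; h1.1 h1.2, which carries a T-DNA insertion in each of the H1.1 and H1.2 genes; and h1.1 h1.2 cdca7a cdca7b, the quadruple mutant, which carries the T-DNA insertions and its own CRISPR mutations.

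The sample titles and the names of the count tables gave the same genotype for the quadruple mutant and different genotypes for the other 9 libraries. By table names the set titled Col-0 would be h1.1 h1.2, the set titled cdca7a cdca7b would be Col-0, and the set titled h1.1 h1.2 would be cdca7a cdca7b. The 4 sets of 3 libraries were kept as they stand, called by their titles, and each comparison below is also given by its table names. No library was moved by its values. GEO's genotype field says Col-0 for all 12.

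Plant mitochondria keep a small genome that encodes subunits of the respiratory chain and the ATP synthase, proteins for cytochrome c maturation, some ribosomal proteins, and their own rRNAs and tRNAs, while most mitochondrial proteins come from nuclear genes. Stretches of organelle DNA also move into the nucleus. Arabidopsis carries a long, recent insertion of mitochondrial DNA near the centromere of chromosome 2, so that many ATMG genes have a nearly identical nuclear copy with an AT2G07 id. Mitochondrial transcripts are mostly not polyadenylated in the stable form that a poly(A) mRNA library selects. The levels below are therefore levels of the reads counted from such libraries, and not of all mitochondrial RNA or of all reads.

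On the reference genome TAIR10.1, whose nuclear chromosomes are those of TAIR10, the insertion ran from base 3239038 to base 3509765 of chromosome 2, a span of 270728 bases. Alignment blocks longer than 2000 bases to the mitochondrial genome covered 99.6% of the span and, on the other side, 72.2% of the 367808 bases of the mitochondrial genome. The 17 blocks were 99.6% to 99.97% identical. Of the 123 chromosome 2 ids, 103 lay inside the insertion and 20 outside it, among them ABCC13 (AT2G07680), an ABC transporter of the MRP family, and MCM5 (AT2G07690), a subunit of the helicase that licenses DNA replication. The mitochondrial genome of TAIR10.1 is a Col-0 sequence and another record than that of TAIR10, to which the reads were aligned, and its annotation does not carry ATMG ids. Names of ATMG ids were therefore taken only from notes of the chromosome 2 genes, and ATMG ids without such a note are given by id alone.

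How alike both copies are decides which reads can be placed, since only reads that mapped uniquely were counted. The first bases of the 3 genes with the most counts among the chromosome 2 members that show no difference to the mitochondrial genome are printed here in gene direction, in lower case because no base differs. Each occurs once in the mitochondrial genome with the same letters.
AT2G07739, annotated as a Ycf1 protein, chr2:3496279-3496398, minus strand and chrM:43383-43502, minus strand: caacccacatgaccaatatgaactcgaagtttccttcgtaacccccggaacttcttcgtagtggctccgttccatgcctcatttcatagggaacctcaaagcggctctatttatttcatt
AT2G07665, an uncharacterized protein, chr2:3500513-3500612, minus strand and chrM:47617-47716, minus strand: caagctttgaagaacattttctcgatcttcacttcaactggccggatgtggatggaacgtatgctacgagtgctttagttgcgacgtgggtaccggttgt
AT2G07835, an uncharacterized protein, chr2:3502195-3502294, minus strand and chrM:49299-49398, minus strand: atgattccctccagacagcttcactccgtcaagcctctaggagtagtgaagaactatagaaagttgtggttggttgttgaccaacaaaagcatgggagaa

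Other members differ from the mitochondrial genome at a single base of their whole length, and 4 of them are shown around that base, which is in capitals, with the mitochondrial match below each. AT2G07714 and AT2G07827 were chosen because counts were found on the nuclear id, and AT2G07724 and AT2G07785 because they were found on the matching mitochondrial id, after the values were seen.
AT2G07714, a transcription factor-like protein, chr2:3408208-3408278, minus strand: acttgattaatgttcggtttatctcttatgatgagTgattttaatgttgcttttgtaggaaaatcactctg
Mitochondrial match of AT2G07714, chrM:225508-225578, plus strand: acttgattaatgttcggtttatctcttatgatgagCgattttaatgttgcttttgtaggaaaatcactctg
AT2G07827, an uncharacterized protein, chr2:3476760-3476830, plus strand: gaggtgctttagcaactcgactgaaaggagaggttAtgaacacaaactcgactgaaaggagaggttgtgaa
Mitochondrial match of AT2G07827, chrM:156842-156912, minus strand: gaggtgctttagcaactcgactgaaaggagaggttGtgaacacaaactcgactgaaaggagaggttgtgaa
AT2G07724, an uncharacterized protein, chr2:3446606-3446676, minus strand: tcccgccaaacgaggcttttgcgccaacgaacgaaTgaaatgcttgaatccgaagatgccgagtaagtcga
Mitochondrial match of AT2G07724, chrM:187045-187115, plus strand: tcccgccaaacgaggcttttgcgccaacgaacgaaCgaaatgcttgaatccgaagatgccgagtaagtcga
AT2G07785, an NADH dehydrogenase family protein, chr2:3348451-3348521, plus strand: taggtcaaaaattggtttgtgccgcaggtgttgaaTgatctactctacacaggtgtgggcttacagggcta
Mitochondrial match of AT2G07785, chrM:82824-82894, minus strand: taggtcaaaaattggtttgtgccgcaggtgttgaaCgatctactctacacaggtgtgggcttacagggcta
Counting from 1 at the left end of the printed stretch, with the mitochondrial base first, the difference is C36T in AT2G07714, G36A in AT2G07827, C36T in AT2G07724 and C36T in AT2G07785.

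Over all blocks, 185 of 269602 compared bases differed, 0.0686%. With both strands pooled and the mitochondrial base first, 102 of these (55.1%) were C on the mitochondrial side and T on chromosome 2, against 15 (8.11%) that were T and C. The C-to-T differences were unevenly spread over sequence contexts. They numbered 35 at cytosines followed by G (the CG context), 44 in the CHG context and 23 in the CHH context, where H stands for A, C or T. Per 1000 cytosines this was 1.75 in CG, 2.23 in CHG and 0.285 in CHH. These are counts over 1 pair of reference sequences and come with no test.

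Few windows of read size separate both copies. Of windows of 100 bases, 7.52% of those in the insertion and 31.8% of those in the mitochondrial genome occurred once in TAIR10.1. The share was 3.98% and 28.9% for 50 bases, and 11% and 34.4% for 150 bases, and the read length is not given in the sources used here. Of the 103 members inside the insertion, 66 were identical to the mitochondrial genome over their whole length. Of the 80 members of at least 100 bases, 45 had no window of 100 bases that occurs once and 35 had some.

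**Figure D1:**
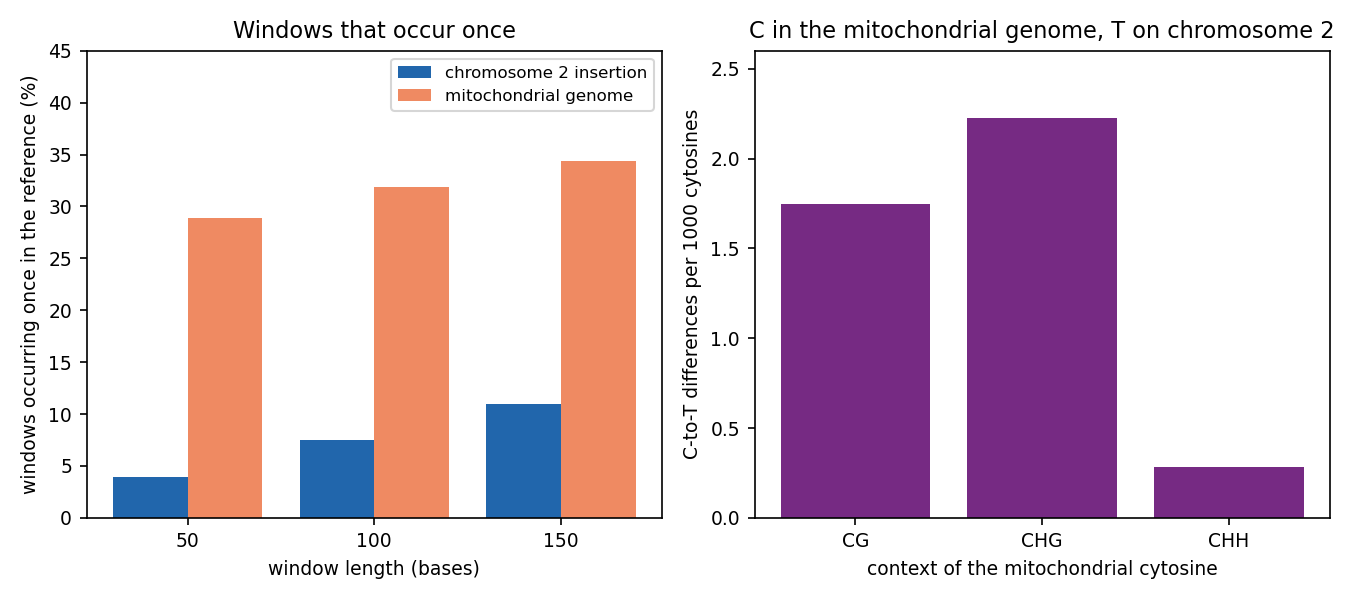
Left, percentage of all windows of 50, 100 or 150 bases that occur once in TAIR10.1, for the chromosome 2 insertion (blue bars) and the mitochondrial genome (orange bars); right, C-to-T differences (C in the mitochondrial genome, T on chromosome 2) per 1000 cytosines in each sequence context. At 100 bases the shares are 7.52% and 31.8%, and the differences are 1.75, 2.23 and 0.285 per 1000 cytosines in CG, CHG and CHH.

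The tables are shallow, and this sets what can be read from the members. Between 450869 and 833911 reads per library were counted on genes, 1.56% to 2.38% of the reads in a table, and nearly all others were listed as lying on no gene. A count of 0 then allows up to 3.60 CPM (counts scaled to 1000000 gene counts of the library) in the deepest and 6.65 CPM in the shallowest library; these limits and the intervals below cover counting error only. The kit preserves strand, the strand option of the counting is not given in the sources used here, and 79.1% of all nuclear counts were on the 22.4% of ids that overlap a gene of the opposite strand. Reads from either strand of such genes cannot be told apart here. A list of 13 nuclear photosynthesis genes, among the most abundant transcripts of a seedling, held 0.0468% to 0.0876% of gene counts in 10 libraries, but 2.35% in replicate 1 and 0.428% in replicate 3 of the set titled h1.1 h1.2. The 3 ids that overlap genes of this list on the opposite strand held 0.661% to 2.00% of gene counts over the libraries. Of the chromosome 2 members, 21 ids (17.1%) overlap a gene of the opposite strand by at least 1 base. These held 52.3% of the counts on the 123 ids. AT2G07739, with 91 counts in all, is among them only by its edge. It begins at base 3495511, and the tRNA gene it meets, with 0 counts, ends at base 3495512. The part of strand in the results below was not tested.

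Most members had no counted reads. Of the 152 ATMG ids, 96 (63.2%) were at 0 in all 12 libraries, and of the 123 chromosome 2 ids 94 (76.4%), against 35.1% of all ids. A total of 56 ATMG ids and 29 chromosome 2 ids had at least 1 count, and 24 and 9 of these, respectively, had counts in 1 library alone. Counts in every library were found for 1 id of each group, ATMG00030 and AT2G07739. Of the 29 chromosome 2 ids with counts, 27 lay inside the insertion.

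A single mitochondrial id held most of the counts. ATMG00030, for which no note gives a name, had 151, 330 and 201 counts in replicates 1 to 3 of the set titled Col-0, 179, 204 and 281 in cdca7a cdca7b, 197, 233 and 847 in the set h1.1 h1.2, then 129, 215 and 11425 in the quadruple mutant. It made up 70.9% to 97.7% of all ATMG counts of a library. The first 3 sets overlapped, and so did the first 2 quadruple mutant libraries with them, while replicate 3 of the quadruple mutant stood at 20537 CPM against at most 1417 CPM elsewhere, 14.5 times the highest other library. The other 151 ATMG ids together had 24, 42 and 22 counts in Col-0, 21, 5 and 32 in cdca7a cdca7b, 81, 41 and 49 in the set h1.1 h1.2, then 35, 40 and 270 in the quadruple mutant.

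**Figure D2:**
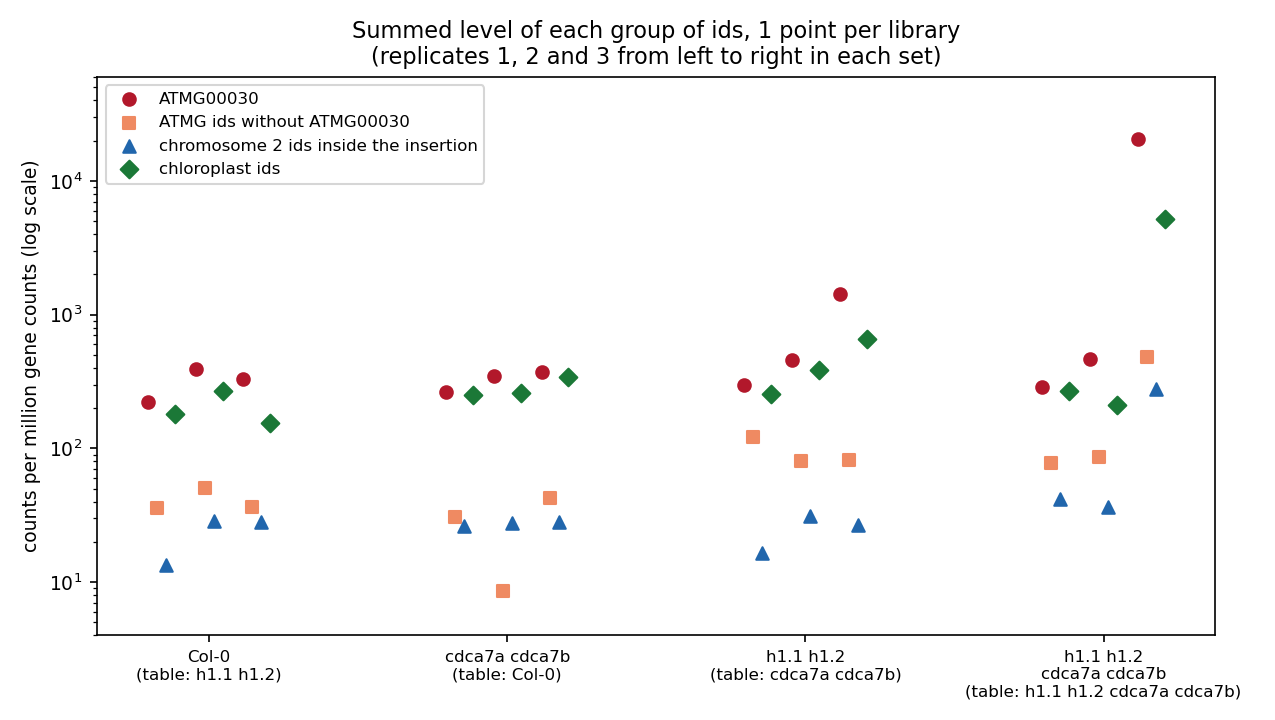
Summed level of ATMG00030, of the other ATMG ids, of the chromosome 2 ids inside the insertion and of the chloroplast ids, in CPM on a log scale, with 1 point per library in the 4 sets by title (table names in brackets). In replicate 3 of the quadruple mutant ATMG00030 is at 20537, and the chromosome 2 ids inside the insertion are at 276.8 against at most 42.1 elsewhere.

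The chromosome 2 members were covered far more thinly than ATMG00030. Another 31 ids inside the insertion are numbered outside the range of the members. They held 506 counts over the 12 libraries, against 338 on the 103 members inside, and were not followed here. The 123 ids together had 9, 27 and 19 counts in the set titled Col-0, 18, 18 and 23 in cdca7a cdca7b, 24, 18 and 16 in the set h1.1 h1.2, then 21, 17 and 157 in the quadruple mutant. Replicate 3 of the quadruple mutant was again highest, and the other 11 libraries overlapped across sets. Among the members, the rise was inside the insertion. The 103 ids there had 154 counts in this library, 276.8 CPM, which was 6.57 times the highest other library. The 20 ids outside had 3 counts, 5.39 CPM, within the range of the other libraries (0.0 to 19.7 CPM). Only 2 of these 20 ids, ABCC13 and MCM5, had a count in any library, 29 in all, which limits this comparison. For the ATMG ids without ATMG00030 the ratio to the highest other library was 3.96.

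As shares of gene counts, the ATMG ids took 0.0358% ± 0.0094 (SD, n = 3) in the set titled Col-0, 0.0357% ± 0.0061 in cdca7a cdca7b, 0.0818% ± 0.059 in h1.1 h1.2 and 0.731% ± 1.19 in the quadruple mutant. The last mean is carried by replicate 3, at 2.10% (Wilson 95% interval 2.07 to 2.14%), since its replicates 1 and 2 were at 0.0364% (0.0312 to 0.0424%) and 0.0552% (0.0488 to 0.0624%), and without replicate 3 the mean was 0.0458%. The mean of h1.1 h1.2 likewise rests on its replicate 3, and was 0.0478% without it. The chromosome 2 ids took 0.00257% ± 0.0011 in Col-0, 0.00293% ± 0.00025 in cdca7a cdca7b, 0.00327% ± 0.00052 in h1.1 h1.2 and 0.0122% ± 0.014 in the quadruple mutant, where replicate 3 was at 0.0282% (0.0241 to 0.0330%) and the mean without it was 0.00417%. The SD of the quadruple mutant exceeds its mean in both groups. There were 0.0697 ± 0.017 chromosome 2 counts per ATMG count in Col-0, 0.0832 ± 0.0086 in cdca7a cdca7b, 0.0566 ± 0.035 in h1.1 h1.2 and 0.0694 ± 0.057 in the quadruple mutant, and these ranges overlapped. Without replicate 1 the last of these was 0.0400. The ratio is set by ATMG00030: without it, replicate 3 of the quadruple mutant had 0.581 chromosome 2 counts per ATMG count, inside the range of the other 11 libraries (0.296 to 3.60).

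Other measures of replicate 3 of the quadruple mutant moved with the members. Its 133 chloroplast ids had 2912 counts against 93 to 394 elsewhere, 7.94 times the highest other library in CPM. The nuclear 18S rRNA id AT3G41768 had 219 counts there, 83 and 67 in replicates 1 and 3 of the set titled h1.1 h1.2, and 0 to 2 in the other 9. The photosynthesis list was at 0.0850% of gene counts in this library, inside the range of the others, and its depth of 556326 was too. Its share of reads counted on genes was the lowest of all, 1.56% against 1.67% to 2.38% in the others. The part of these in the members' counts was not tested. The rRNA id was listed as a sign of poly(A) selection, and a difference in that selection was not tested. With RNA from a single seedling taken as a whole, more organelle RNA per cell, more cells rich in organelles and more RNA without poly(A) in this library cannot be told apart.

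A total of 7 mitochondrial ids and 6 chromosome 2 ids had a median above 0 over the libraries. ATMG00110 had 16, 15 and 15 counts in the set titled Col-0, 9, 0 and 6 in cdca7a cdca7b, 21, 9 and 1 in the set h1.1 h1.2, then 11, 9 and 96 in the quadruple mutant. The set titled h1.1 h1.2 overlapped the sets titled Col-0 and cdca7a cdca7b, and the highest value was again that of replicate 3 of the quadruple mutant. In CPM, the set titled cdca7a cdca7b lay below every library titled Col-0 and every quadruple mutant library, at 0 to 9 counts. Such separations of sets were not counted over all ids, so this one is not read as a difference between genotypes. ATMG00050 behaved otherwise, with 1, 6 and 2 counts in Col-0, 2, 0 and 6 in cdca7a cdca7b, 9, 4 and 12 in the set h1.1 h1.2, then 4, 14 and 8 in the quadruple mutant. Its replicate 3 of the quadruple mutant was at 0.475 of the highest other library in CPM. All quadruple mutant libraries lay above every library titled Col-0 or cdca7a cdca7b in CPM of this id, and the same limit holds. ATMG00810 had 0 to 5 counts in 11 libraries and 16 in replicate 3 of the quadruple mutant, and ATMG01360 had 0 to 9 and then 18.

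Of those ids, 2 have a chromosome 2 partner by note. ATMG00200, whose partner is AT2G07724, had 1, 1 and 1 counts in Col-0, 2, 0 and 0 in cdca7a cdca7b, none in the set h1.1 h1.2, then 1, 1 and 22 in the quadruple mutant. In CPM its replicate 3 of the quadruple mutant was 13.4 times the highest other library, next to the 14.5 of ATMG00030. ATMG01030, whose partner is AT2G07673, had 6 counts in replicate 2 of the quadruple mutant, 0 in replicate 3 and 0 or 1 elsewhere. Neither AT2G07724 nor AT2G07673 had a count in any library.

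On chromosome 2, AT2G07739 led with 2, 7 and 6 counts in Col-0, 2, 11 and 4 in cdca7a cdca7b, 5, 2 and 4 in the set h1.1 h1.2, then 7, 8 and 33 in the quadruple mutant. In CPM, replicate 3 of the quadruple mutant was 3.14 times the highest other library, and the other 11 overlapped. AT2G07665 had 0, 11 and 7 counts in Col-0, 0, 1 and 0 in cdca7a cdca7b, 1, 1 and 4 in the set h1.1 h1.2, then 1, 1 and 20 in the quadruple mutant. AT2G07827 had 0, 1 and 0, then 2, 1 and 0, then 0, 0 and 5, and then 0, 4 and 27 in the same order. AT2G07787 had 10 counts in replicate 3 of the quadruple mutant and 0 to 5 elsewhere. These 4 ids lie inside the insertion. AT2G07827 and AT2G07787 overlap a gene of the opposite strand, and AT2G07739 does so only at its edge.

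A pair of ids did not follow this pattern. AT2G07693, a pseudogene inside the insertion that overlaps AT2G07692 on the opposite strand, had 8 counts in replicate 2 of the set titled h1.1 h1.2, 0 in replicate 3 of the quadruple mutant and 0 to 3 elsewhere. MCM5, outside the insertion, had 11 counts in replicate 1 of the set titled h1.1 h1.2 and 0 to 2 in all others. That library is the one with 2.35% of gene counts on the photosynthesis list.

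**Figure D3:**
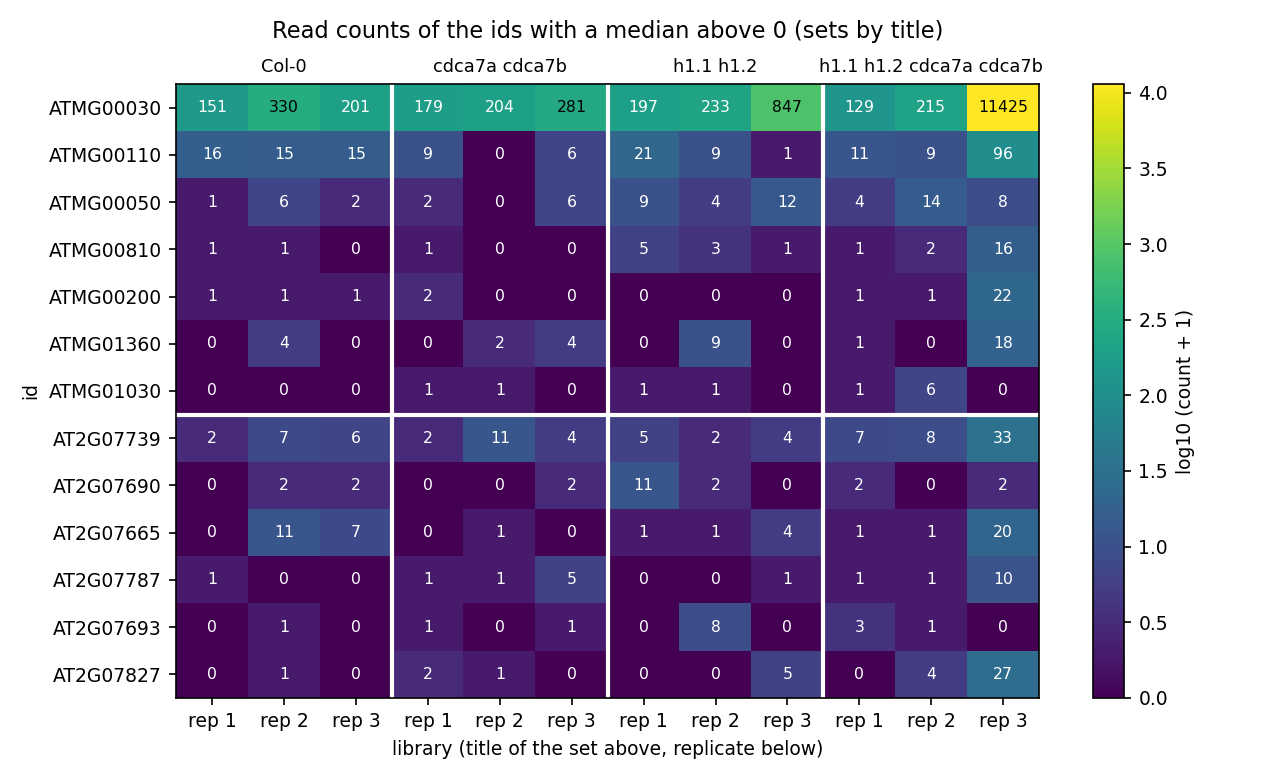
Read counts of the 7 mitochondrial ids (upper rows) and 6 chromosome 2 ids (lower rows) with a median CPM above 0, in the 12 libraries (columns), with the count printed in each cell and coloured by log10 of the count plus 1. ATMG00030 reaches 11425 in replicate 3 of the quadruple mutant, where ATMG01030 and AT2G07693 are at 0.

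Across all members with counts, 26 of 56 mitochondrial ids and 14 of 29 chromosome 2 ids had their highest CPM in replicate 3 of the quadruple mutant. Of the same ids, 25 and 10, respectively, had 0 counts there. These numbers were not taken over all ids, so they cannot be read as particular to the members. Many members are too thin to rank: 37 and 14 never rose above 3 counts. Chosen after their values were seen, ATMG00020 and ATMG01390 had counts in 4 libraries each. ATMG00020 had 21, 2 and 7 counts in the set titled h1.1 h1.2, 23 in replicate 3 of the quadruple mutant and 0 in the other 8. ATMG01390 had 10, 0 and 19 counts in the set titled h1.1 h1.2, 26 in replicate 3 of the quadruple mutant, 2 in replicate 3 of cdca7a cdca7b and 0 in the other 7. The 3 libraries with more than 2 counts of AT3G41768 are among those with counts of both ids.

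The notes of the reference pair 45 chromosome 2 members with 44 ATMG ids. In 4 pairs both ids had counts, in 7 the chromosome 2 id alone, in 9 the mitochondrial id alone, and in 25 neither. A total of 8 of the pairs with counts on 1 id had 1 count in all and could not have had counts on both; of the 12 pairs with at least 2 counts, 4 had counts on both ids and 8 on 1 id. The pairs named next were chosen after their values were seen, except those of AT2G07739 and ATMG00200. AT2G07739 had 91 counts over the 12 libraries and its partner ATMG00370 none. AT2G07835 had 23, of which 17 were in replicate 3 of the quadruple mutant, and its partner ATMG00400 none. The reverse held for ATMG00200, with 29 counts against 0 on AT2G07724, and for ATMG01275, the NADH dehydrogenase 1A partner of AT2G07785, with 12 against 0. The ids of the ATP synthase alpha subunit had 6 counts on AT2G07698 and 0 on ATMG01190, those of apocytochrome b had 2 on AT2G07727 and 1 on ATMG00220, and those of cytochrome c oxidase subunit II had 0 on AT2G07695 and 7 on ATMG01280.

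Counts were not limited to members that the reference tells apart. The 45 members without any 100-base window that occurs once in TAIR10.1 held 210 counts on 13 ids, AT2G07739, AT2G07665 and AT2G07835 among them, and the 35 members with some such window held 127 counts on 13 ids. AT2G07724, whose difference from the mitochondrial genome is printed above, had 0 counts, and AT2G07714, which also differs at 1 base, had 10, of which 8 were in replicate 3 of the quadruple mutant. The windows were taken from TAIR10.1 and the reads were placed on TAIR10 with its other mitochondrial sequence, so that a window shared in the first may be unique in the second. A count on either id of a pair is therefore uncertain as to which copy it came from.

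**Figure D4:**
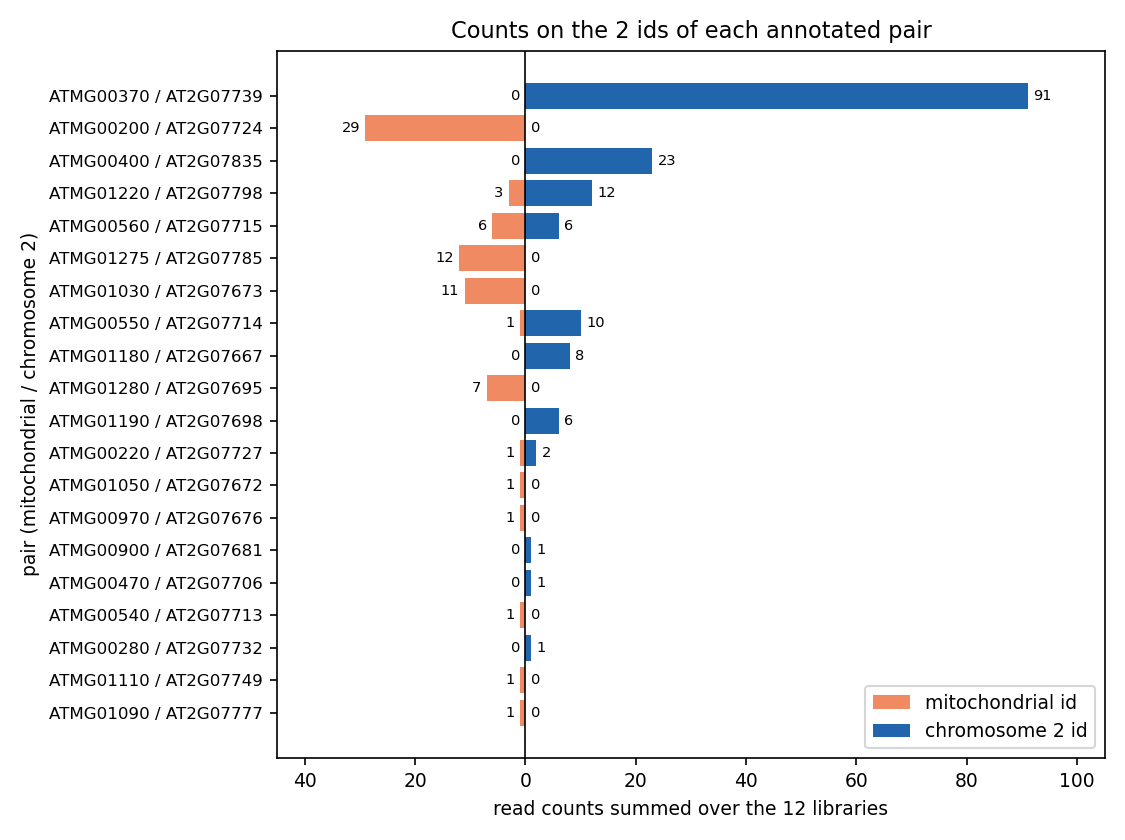
Read counts summed over the 12 libraries for the mitochondrial id (orange, to the left) and the chromosome 2 id (blue, to the right) of the 20 annotated pairs with at least 1 count. Both ids have counts in 4 pairs, 8 pairs hold 1 count in all, and the longest bar is 91 on AT2G07739 against 0 on ATMG00370.

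The question of the design, whether a genotype changed these transcripts, was put to all 6 pairs of sets and to the interaction of CDCA7 loss and H1 loss under each naming. The tests were edgeR's quasi-likelihood tests on 4461 ids that passed the filter on low counts, with Benjamini-Hochberg adjustment over all of them, and a call needed an adjusted p below 0.05 and at least a 2-fold difference. Of the members, 2 of 152 ATMG ids (ATMG00030 and ATMG00110) and 1 of 123 chromosome 2 ids (AT2G07739) passed the filter, and replicate 3 of the quadruple mutant is where each of the 3 was highest. None was called in any of the 8 comparisons by edgeR, and DESeq2 called no member either. In 6 of the 8 comparisons, however, DESeq2 gave an adjusted p to 2 to 5 ATMG ids and 1 to 3 chromosome 2 ids alone. Most members could not be called there. In the other 2 it gave one to 55 of the 56 ATMG ids with counts and to all 29 chromosome 2 ids with counts. A member without a p could not be called by DESeq2, and which ATMG id lacked one is not given here. Log2 fold changes below carry a standard error derived from the test statistic.

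For cdca7a cdca7b against Col-0 by title, which by table names is Col-0 against h1.1 h1.2, 0.426% of all tested ids were called. The log2 fold change was 0.25 ± 1.04 for ATMG00030 (adjusted p = 0.992), -1.44 ± 1.02 for ATMG00110 (0.855) and 0.53 ± 0.86 for AT2G07739 (0.974), by edgeR. No member had an unadjusted p below 0.05.

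For h1.1 h1.2 against Col-0 by title, cdca7a cdca7b against h1.1 h1.2 by table names, 3.95% of all tested ids were called. By edgeR, ATMG00030 was at 1.19 ± 1.04 (adjusted p = 0.658), ATMG00110 at -0.25 ± 0.95 (0.940) and AT2G07739 at -0.12 ± 0.89 (0.974). For h1.1 h1.2 against cdca7a cdca7b by title, which by table names is cdca7a cdca7b against Col-0, 2.17% were called. ATMG00030 was at 0.95 ± 1.04 (edgeR, adjusted p = 0.719), ATMG00110 at 1.18 ± 1.05 (0.636) and AT2G07739 at -0.65 ± 0.88 (0.782). In both comparisons 0 members had an unadjusted p below 0.05. The differences were within or near 1 standard error.

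For the quadruple mutant against Col-0 by title, against h1.1 h1.2 by table names, 0.0448% of all tested ids were called. By edgeR, ATMG00030 was at 4.56 ± 1.18 (unadjusted p = 0.0015, adjusted p = 0.562), ATMG00110 at 1.76 ± 0.91 (adjusted p = 0.941) and AT2G07739 at 2.17 ± 0.82 (adjusted p = 0.875). An unadjusted p below 0.05 was found for 2 of the 3. Without replicate 3 of the quadruple mutant the values were 0.30 for ATMG00030, 0.00 for ATMG00110 and 1.24 for AT2G07739, with adjusted p of 0.999, 1.0 and 0.999 by edgeR.

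For the quadruple mutant against cdca7a cdca7b by title, against Col-0 by table names, 0.426% were called. ATMG00030 was at 4.31 ± 1.17 (edgeR, adjusted p = 0.185), ATMG00110 at 3.20 ± 1.01 (0.291) and AT2G07739 at 1.64 ± 0.81 (0.572), and the 2 mitochondrial ids had an unadjusted p below 0.05. Without replicate 3 of the quadruple mutant they were at 0.05, 1.46 and 0.69. For the quadruple mutant against h1.1 h1.2 by title, against cdca7a cdca7b by table names, 0.336% were called. ATMG00030 was at 3.37 ± 1.11 (edgeR, adjusted p = 0.173), ATMG00110 at 2.02 ± 0.93 (0.389) and AT2G07739 at 2.29 ± 0.84 (0.228), all 3 with an unadjusted p below 0.05. Without replicate 3 of the quadruple mutant ATMG00030 turned to -0.84, and the others were at 0.32 and 1.42.

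The interaction by title, which asks whether the difference between the CDCA7 mutants and their controls changes without H1, called 1.08% of all tested ids. By edgeR, ATMG00030 was at 3.12 ± 1.49 (adjusted p = 0.408), ATMG00110 at 3.45 ± 1.38 (0.291) and AT2G07739 at 1.76 ± 1.21 (0.616), and 1 of the 3, ATMG00110, had an unadjusted p below 0.05. Without replicate 3 of the quadruple mutant the values were -1.09, 1.77 and 0.87. The interaction by table names called 0.0% of all tested ids, and ATMG00030 was at 3.61 ± 1.5, ATMG00110 at 0.58 ± 1.42 and AT2G07739 at 2.83 ± 1.2 (edgeR, adjusted p = 0.623, 0.951 and 0.623), with 2 of the 3 at an unadjusted p below 0.05. Without replicate 3 of the quadruple mutant these were -0.59, -1.14 and 1.97.

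The shares over all tested ids, which the members are read against, moved with single libraries. With each of the 12 libraries left out in turn, the ids called by edgeR numbered 11 to 672 for h1.1 h1.2 against Col-0 by title, against 176 with all libraries. They were 13, 11 and 11 without replicates 1, 2 and 3 of Col-0, 59 without replicate 1 of h1.1 h1.2 and 672 without its replicate 2. For h1.1 h1.2 against cdca7a cdca7b by title they numbered 5 to 580, against 97, and 10 of the 12 libraries moved the count by over 1.5 times, down to 5 without replicate 2 of cdca7a cdca7b and up to 580 without replicate 2 of h1.1 h1.2. Without this last library the counts were also highest for the quadruple mutant against h1.1 h1.2 (400, against 15) and for the interactions by title (198, against 48) and by table names (31, against 0). The other 3 ranges were 4 to 28 for cdca7a cdca7b against Col-0, 0 to 2 for the quadruple mutant against Col-0 and 7 to 29 for the quadruple mutant against cdca7a cdca7b, by title. No member was called in any of these fits.

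Without the filter on low counts, edgeR called 1 or 2 mitochondrial ids and no chromosome 2 id in 7 of the 8 comparisons, of 56 and 29 ids tested. The shares of all ids called in that fit were 2.68% for h1.1 h1.2 against Col-0 by title, 2.13% for h1.1 h1.2 against cdca7a cdca7b, 0.164% for the quadruple mutant against Col-0, 0.406% against cdca7a cdca7b and 1.59% against h1.1 h1.2, and 1.09% and 0.519% for the interactions by title and by table names. ATMG00030 and ATMG00110 were the ids called in comparisons of the quadruple mutant, where replicate 3 held the highest count of both.

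The nuclear side of the organelle was read from 33 nuclear genes for mitochondrial proteins, among them alternative oxidases, cytochrome c, ATP synthase and complex I subunits, porins, ADP/ATP carriers and the organellar RNA polymerases. All 33 are in the tables, 5 passed the filter and 0 were called by edgeR in any of the 8 comparisons, with 0 to 3 of the 5 at an unadjusted p below 0.05. The list did not follow the ATMG ids: it had 126 counts (226.5 CPM) in replicate 3 of the quadruple mutant, inside the range of the sets titled Col-0 and cdca7a cdca7b (187.8 to 275.8 CPM). It was highest in replicates 1 and 3 of the set titled h1.1 h1.2, at 1158 and 577.2 CPM, the libraries with the larger share on the photosynthesis list. DESeq2 called 4 of the list in h1.1 h1.2 against Col-0 by title, where it called 5.46% of all ids with an adjusted p. They were the porin gene AT3G01280, the ATP synthase genes AT5G08670 and AT5G13450, and the complex I gene AT5G37510, all higher, with log2 fold changes of 4.93 to 6.74. It also called AT5G08690 in h1.1 h1.2 against cdca7a cdca7b by title (4.37% of all ids) and AT5G37510 in the interaction by title (1.26%). With replicate 2 of the set titled h1.1 h1.2 left out, edgeR called AT5G13450 against both Col-0 and cdca7a cdca7b, and AT3G08580, an ADP/ATP carrier, against cdca7a cdca7b, in a fit that called 12.5% and 10.8% of all tested ids in these comparisons. Without the filter on low counts edgeR called 5 of the list against Col-0 and 3 against cdca7a cdca7b in h1.1 h1.2, all higher, 3 in the quadruple mutant against h1.1 h1.2, all lower, and 2 in the interaction by title, beside the shares of all ids given above for that fit. Nothing particular to the list is read from these calls.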

How the data were processed

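Seedlings were grown for 14 days, and libraries were made from 500 ng of total RNA with a stranded mRNA kit. Per the labels and the study's methods, the authors trimmed reads with Trim Galore 0.6.7, aligned left reads to TAIR10 with STAR 2.7.11a, kept unique alignments with under 5% mismatches, and deposited raw read counts per gene from HTSeq 0.13.5, not normalized. Unique mapping removes reads that both copies share. The 5 HTSeq summary lines were left out of library sizes. Counts per transposable element were not used here.

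Members and lists were chosen with earlier results of these data known. Named ids were those with the 10 highest medians of CPM per group; medians above 0 were had by 7 and 6. Any member called would also have been named. All 12 libraries were fitted with edgeR 4.0.16 in R 4.3.3 (TMM, filterByExpr with a minimum count of 10, set means). Alternatives were DESeq2 1.42.0, its size factors, no filter, 6 libraries alone, a replicate block, no fold cutoff, library sizes without organelle ids, and each library left out. The test was checked on simulated counts with the same spread for every id and no library that stands apart. That check does not cover members whose counts rest on a single library. Replicate numbers did not pair libraries (correlations of deviations from set means -0.134 to 0.156, over 0.1 in 2 of 18 pairs). Sequences were compared with BLAST 2.17.0 on TAIR10.1 (RefSeq), where windows were matched on both strands. CPM of single ids and sums were divided by gene counts of the library. p-values measure the spread between single seedlings.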

Additional observations from a re-analysis of the deposited data

How the results depend on the processing

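No member was called under DESeq2, which gave most members no adjusted p in 6 of the 8 comparisons. In the other 2 it gave one to 55 of the 56 ATMG ids with counts. None was called with DESeq2 size factors in edgeR, library sizes without organelle ids, no cutoff on the fold change or the 6 libraries compared alone. The same held with any of the 12 libraries left out. In that case 4 to 7 members passed the filter and the lowest adjusted p was 0.0506 by edgeR. With the replicate number as a block, 0 members were called, with a lowest adjusted p of 0.335; the numbers do not pair the libraries. Without the filter on low counts, edgeR tested 56 mitochondrial and 29 chromosome 2 ids and called 2 mitochondrial ids in h1.1 h1.2 against Col-0 by title (ATMG00020 and ATMG01390), 1 in h1.1 h1.2 against cdca7a cdca7b (ATMG00020), 1 in the quadruple mutant against Col-0 (ATMG00030), 2 in the quadruple mutant against cdca7a cdca7b and 2 in the quadruple mutant against h1.1 h1.2 (ATMG00030 and ATMG00110), and 2 and 1 in the interactions by title and by table names. It called no chromosome 2 id. In that fit ATMG00030 of the quadruple mutant against Col-0 reached an adjusted p of 1.4e-59, with a range over all alternatives of 1.4e-59 to 1.0 and a lowest value of 0.134 over those with the filter; 1 of the 3 quadruple mutant libraries was high, and the cause was not tested. All ids called without the filter numbered 620, 494, 38, 94, 368, 253 and 120 in these 7 comparisons, in the order given, against 176, 97, 2, 19, 15, 48 and 0 with it. Leaving out AT2G07739 and ATMG00030 moved the chromosome 2 counts per ATMG count to 0.453 in Col-0, 0.919 in cdca7a cdca7b, 0.290 in h1.1 h1.2 and 0.361 in the quadruple mutant. Shares with chloroplast ids left out of the denominator moved by less than 1 SD. With 2 ATMG ids and 1 chromosome 2 id testable, depth limits every statement on the other members.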
